A study of Homo sapiens with 18 samples.

Results

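Interferon-stimulated effector genes are the genes whose products act against viruses once a cell has received an interferon signal. They were followed here through 6 ovarian cancer cell lines as 40 genes chosen by symbol, of which 37 had a row among the 12853 genes of the expression table. EPSTI1, ISG20 and TRIM22 had none and were not analysed here. RNA-seq was available for 18 libraries, 3 per line, from 3 pairs of a platinum-sensitive line and its resistant counterpart. PEO1 (sensitive) and PEO4 (resistant) came from 1 patient with high-grade serous ovarian cancer (HGSOC). Both were isolated after platinum-based chemotherapy, PEO1 before and PEO4 after platinum resistance appeared in the clinic. PEA1 (sensitive) and PEA2 (resistant) were grown from the ascites of another patient with HGSOC, the first before platinum chemotherapy and the second at relapse with resistant disease. CP70, in full A2780cp70, was selected for platinum resistance in culture from the sensitive line A2780. The study describes the A2780 and CP70 pair as not HGSOC. Every line was cultured in the same medium with fetal bovine serum, and the labels record no interferon, virus or drug given to the cells before RNA was taken. Each pair is therefore 1 resistant line against 1 sensitive line, and the labels do not say whether the 3 replicates were separate cultures, so the p-values measure the spread between these libraries, which may be technical.

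Interferons bind receptors at the cell surface and switch on the kinases JAK1 and TYK2, which activate transcription factors, STAT2 among them. With IRF9, these bind a short DNA motif, the interferon-stimulated response element, near the start of many genes. The effector genes among them act in different ways: IFIT and OAS proteins recognise foreign RNA, MX proteins are GTPases that trap viral particles, IFITM proteins and tetherin act at membranes, and ISG15 is a ubiquitin-like tag. Many tumour lines transcribe part of this set without added interferon.

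Reads on listed genes ran from 1344098 to 7067336 per library, and 3 reads, used here as the limit of detection, equal 0.452 to 2.18 CPM, the reads of a gene scaled to a common library size. Intervals and limits from reads cover counting error only. The spread between replicates exceeded sampling noise (chi-square per degree of freedom 1.74 to 13.5). All 6 epithelial and serous markers examined had a row. Their summed level was 1.68 to 2.84 CPM in A2780, with PAX8 and WT1 at 0, against 89.8 to 96.0 in CP70, 426 to 584 in PEA1, 1792 to 2039 in PEA2, 4258 to 5432 in PEO1 and 4027 to 5685 in PEO4. Of 6 leukocyte markers only PTPRC had a row, and of 3 endothelial markers only CDH5. In PEA2 they stood at 20.1 to 25.1 and 25.3 to 36.1 CPM. No other line exceeded 0.526 CPM for either. Of 5 fibroblast markers 4 had a row, and their summed level was 366 to 447 CPM in PEA1 against 3.45 to 6.40 in PEA2, 6.19 to 12.9 in A2780 against 50.5 to 57.2 in CP70, and 3.26 to 7.39 in PEO1 against 14.2 to 17.3 in PEO4. COL1A2, DCN and LUM were at 0 in PEA1, DCN and LUM in PEA2, and DCN in PEO4. The PEA1 sum was thus COL1A1 alone, whereas COL1A2 was higher in PEA2 than in PEA1. The epithelial and serous sum overlapped between PEO1 and PEO4. Within it EPCAM, PAX8 and WT1 were higher in PEO4, KRT8 and KRT18 lower, each without overlap, and MUC16 overlapped. PTPRC and CDH5 stood out in PEA2 alone. The other marker sums differed without overlap between the lines of the pairs compared below. The part of these markers in the results was not tested. In bulk RNA, fewer cells that express a gene cannot be told apart from less RNA per cell.

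The interferon-stimulated response element was sought, as the letters GAAANNGAAA on either strand, in the 250 bases before and 50 bases after each gene's start. RefSeq promoters on GRCh38.p14 were found for 30 of the 37 members, and 19 of these (63.3%) held the motif. It was present in 3.65% of all 27305 promoters of that table and in 2.77% of the 8983 promoters of genes with a row. Matches in 1 promoter can overlap. Below, 1 match is shown for each of 8 members whose expression is described in detail, on the strand of the gene from 5′ to 3′, with the motif in capitals and 20 bases on each side in lower case; in IFIT1 the motif lies on the opposite strand and reads as its reverse complement.
ISG15, chr1:1013370-1013419 (GRCh38.p14, plus strand), motif from position -107: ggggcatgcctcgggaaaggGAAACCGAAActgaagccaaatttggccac
IFIT1, chr10:89392500-89392549 (GRCh38.p14, plus strand), motif from position -103: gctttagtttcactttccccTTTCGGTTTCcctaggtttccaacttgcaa
IFI6, chr1:27672278-27672327 (GRCh38.p14, minus strand), motif from position -115: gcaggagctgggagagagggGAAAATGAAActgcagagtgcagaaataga
IFI44L, chr1:78620355-78620404 (GRCh38.p14, plus strand), motif from position -73: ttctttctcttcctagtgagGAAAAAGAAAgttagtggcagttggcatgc
IFITM1, chr11:313980-314029 (GRCh38.p14, plus strand), motif from position -40: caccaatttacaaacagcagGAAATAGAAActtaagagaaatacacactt
BST2, chr19:17405725-17405774 (GRCh38.p14, minus strand), motif from position -124: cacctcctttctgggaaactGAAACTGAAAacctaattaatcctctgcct
DDX60L, chr4:168480513-168480562 (GRCh38.p14, minus strand), motif from position -50: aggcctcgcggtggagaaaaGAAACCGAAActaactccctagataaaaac
LGALS3BP, chr17:78979952-78980001 (GRCh38.p14, minus strand), motif from position -58: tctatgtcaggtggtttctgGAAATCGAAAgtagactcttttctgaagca
The 50 bases shown for IFI44L occur at 2 places in its promoter, since the run that begins 20 bases before position -164 reads the same as the one around position -73. In CMPK2, HELZ2, HERC6, IFI35, OAS1, RSAD2, SAMD9L, SP100, SP110, UBE2L6 and XAF1 the letters were not in the window. The plot of motif positions shows matches centred between -159 and 16 bases from the start.

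**Figure D1:**
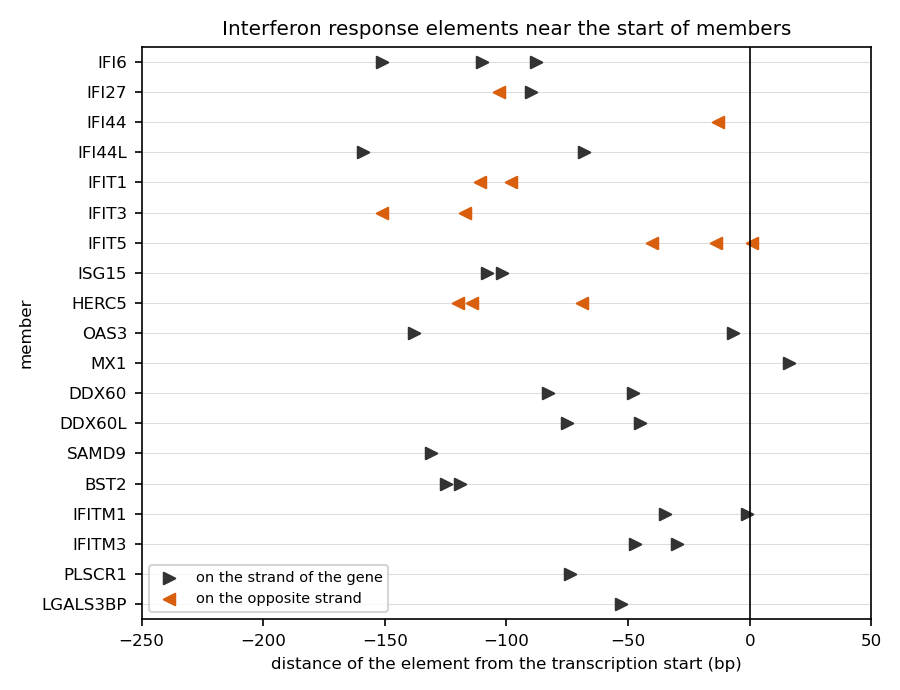
Position of each GAAANNGAAA match (x axis, distance in bp from the transcription start at 0) in the 19 members that held at least 1 (y axis). Right-pointing triangles mark matches on the strand of the gene and left-pointing triangles matches on the opposite strand; the match furthest upstream is that of IFI44L, centred at -159.

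The 3 pairs were compared first over the whole set. A gene was called when its difference between the resistant and the sensitive line (log2FC) exceeded 2 in size with a false discovery rate (FDR, Benjamini-Hochberg over 12853 genes, limma) below 0.05, and it was said to rise or fall at that FDR alone. In the PEO pair every one of the 37 genes rose in PEO4. None fell, at the FDR or at an unadjusted p below 0.05, and in none did the libraries of the 2 lines overlap. The share of all genes without such overlap is not given here, so the lack of overlap has no baseline. Over all listed genes 19.6% rose and 21.9% fell in this pair. Of the 37, 27 were called higher and 0 lower, against 2.86% and 3.37% of all genes. Their log2FC ran from 0.92 (USP18) to 7.26 (IFI44L), with a median of 3.18 against -0.02 over all genes. The table holds only genes with more than 2 CPM in at least 3 libraries, so a gene seen in a single line can be listed, but no member was above that level in exactly 3 libraries and 14 were above it in all 18.

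The other pairs were mixed. In the PEA pair 23 of the 37 rose in PEA2, 4 fell and 10 did neither. Over all genes 32.5% rose and 29.4% fell. Called higher were 10 (7.93% of all genes) and lower 1 (6.15% of all genes), and the median log2FC was 0.87 against 0.01 over all genes. In the A2780 pair 17 rose in CP70, 9 fell and 11 did neither, where 22.2% of all genes rose and 17.7% fell. Called higher were 10 (5.66% of all genes) and lower 2 (3.40% of all genes), and the median log2FC was 0.50 against -0.02. Of the 17, 8 rested on a line with at most 3 reads per library, where log2FC depends on the 0.5 reads the authors added, and in 3 the lines overlapped. For 9 members neither A2780 nor CP70 exceeded 3 reads in any library, so a difference was not detectable at this depth; OAS2, which is counted among the 17, is 1 of these 9. With lines at 0 reads set to 3 reads and those 9 left out, the median log2 fold of the pairs was 0.79 (A2780), 1.03 (PEA) and 3.20 (PEO).

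**Figure D2:**
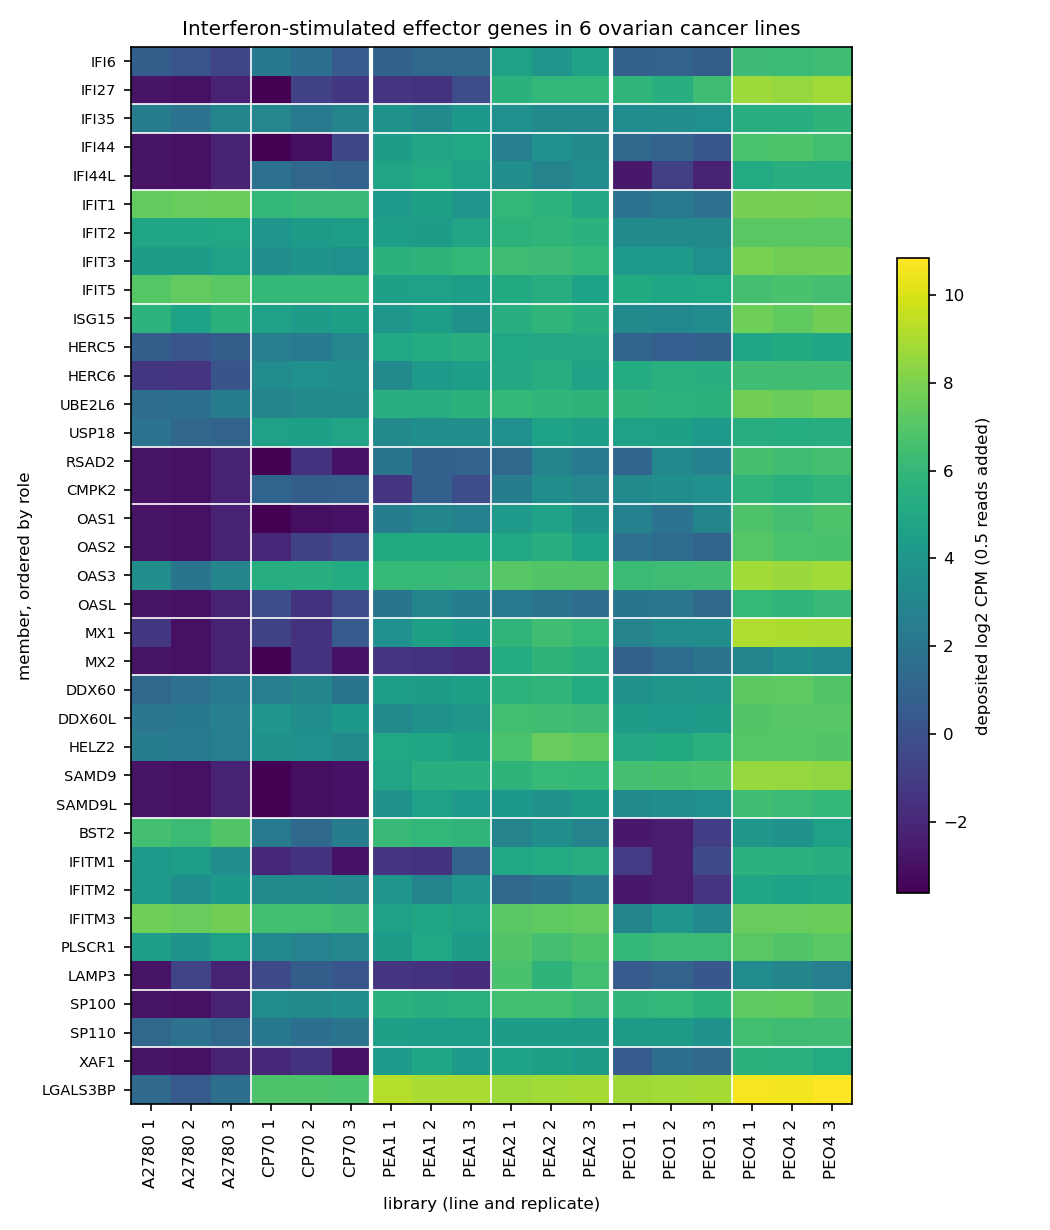
Deposited log2 CPM (colour) of the 37 members (y axis, ordered by role, white lines between groups) in the 18 libraries (x axis; thick white lines part the 3 pairs). The 3 PEO4 columns are the brightest for most genes, and the lower part of the colour scale fills 13 rows of A2780 where no read was counted.

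**Figure D3:**
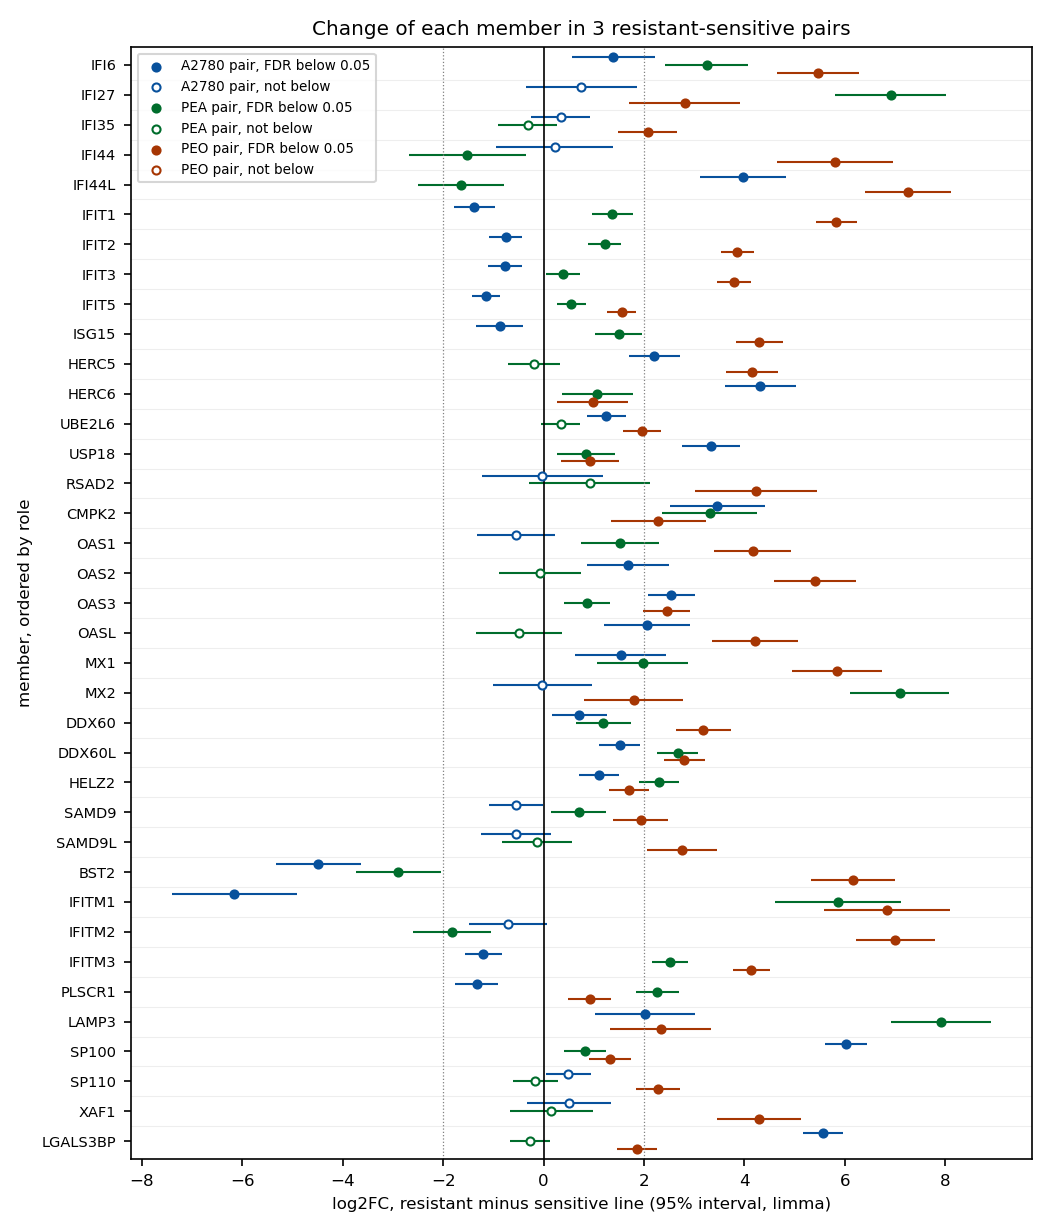
Difference between resistant and sensitive line (x axis, log2FC with 95% interval from limma) for each member (y axis) in the A2780 pair (blue), PEA pair (green) and PEO pair (red-brown). Filled points have an FDR below 0.05 and dotted lines mark log2FC of 2 in size; the PEO points all lie to the right of 0, from 0.92 to 7.26, whereas blue and green points fall on both sides.

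Folds below are ratios of the CPM of the 3 libraries of each line, and gene positions are on GRCh37 (hg19), the build of the files. The ISG15 system tags proteins with a ubiquitin-like modifier. ISG15 is the tag, UBE2L6 its conjugating enzyme, HERC5 its main ligase in human cells, HERC6 a relative of HERC5 on the same stretch of chromosome 4, and USP18 removes the tag and also damps receptor signalling. The tag and its enzymes moved apart in the A2780 pair, where ISG15 fell while the other 4 rose. ISG15 stood at 52.9, 27.3 and 51.0 CPM in A2780, 25.2, 19.7 and 24.2 in CP70, 16, 21.4 and 13.2 in PEA1, 43.7, 57.6 and 42.5 in PEA2, 9.47, 8.59 and 10.1 in PEO1 and 202, 157 and 204 in PEO4. It was lower in each CP70 library than in each A2780 library and highest in PEO4, with no overlap within any pair. Its log2FC was -0.87, 1.50 and 4.30 in the A2780, PEA and PEO pairs (SE 0.22, limma FDR = 0.00373, 8.39e-06 and 1.56e-11). HERC6 stood at 0.280, 0.258 and 0.894 CPM in A2780, 10.2, 12.3 and 11 in CP70, 9.44, 17.8 and 22.4 in PEA1, 34.1, 42.0 and 25.6 in PEA2, 39.2, 46.5 and 43.9 in PEO1 and 85.5, 84.8 and 84.0 in PEO4. A2780 held 4 HERC6 reads in all, so its level there is known only roughly, and HERC6 was 26.7-fold higher (95% counting interval 10.2 to 99.4) in CP70. The log2FC was 4.31, 1.07 and 0.97 in the A2780, PEA and PEO pairs (SE 0.34, limma FDR = 1.87e-09, 0.00968 and 0.0255). The PEA difference missed the FDR without PEA1 replicate 1, and the PEO difference missed it without PEO1 replicate 1 or 3 or any single PEO4 library, although the lines of these pairs did not overlap.

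USP18 (chr22:18632885-18660164, plus strand) was present in every library. It stood at 3.64, 2.06 and 1.79 CPM in A2780, 25.4, 22.8 and 28.7 in CP70, 8.72, 11.4 and 11.5 in PEA1, 12.3, 27.1 and 21.5 in PEA2, 24.8, 24.3 and 17.5 in PEO1 and 42.2, 40.4 and 42.2 in PEO4. CP70 was far above A2780, PEO4 was above PEO1 without overlap, and 1 PEA2 library lay close to the PEA1 range. The log2FC was 3.33, 0.85 and 0.92 in the A2780, PEA and PEO pairs (SE 0.28, limma FDR = 4.58e-09, 0.0114 and 0.0109). Without PEA2 replicate 2 the PEA difference, and without PEO1 replicate 3 the PEO difference, missed the FDR. USP18 has near-identical copies elsewhere in the genome, so its reads are uncertain. HERC5 and UBE2L6 both rose in CP70 and PEO4 and in neither case changed in PEA2 beyond the FDR. HERC5 gave log2FC of 2.20, -0.19 and 4.15 in the A2780, PEA and PEO pairs (SE 0.24, limma FDR = 3.19e-07, 0.515 and 8.38e-11). UBE2L6 gave log2FC of 1.25, 0.35 and 1.96 in the A2780, PEA and PEO pairs (SE 0.19, limma FDR = 1.42e-05, 0.113 and 5.46e-08).

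The IFIT genes form a cluster on chromosome 10 and encode proteins that bind foreign RNA. IFIT1 binds RNA whose cap lacks methylation, IFIT3 is its partner, and IFIT5 binds RNA with a phosphate at its end. All 4 measured members did the same thing: they fell in CP70, rose in PEA2 and rose in PEO4. IFIT1 (chr10:91152303-91166244, plus strand) stood at 166, 179 and 184 CPM in A2780, 61.4, 70.9 and 71.3 in CP70, 17.4, 24.2 and 15.0 in PEA1, 61.9, 52.7 and 34.8 in PEA2, 3.59, 5.01 and 3.32 in PEO1 and 238, 231 and 222 in PEO4. A2780 came second only to PEO4, PEO1 was the lowest line, and no pair overlapped. The log2FC was -1.38, 1.37 and 5.83 in the A2780, PEA and PEO pairs (SE 0.20, limma FDR = 8.7e-06, 5.09e-06 and 4.33e-14). In PEO4 it was 61.3-fold higher (95% counting interval 45.9 to 83.7) than in PEO1. The difference between the A2780 and the PEO change was -7.21 on the log2 scale (SE 0.28, limma FDR = 5.62e-14).

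Among its neighbours IFIT2 gave log2FC of -0.76, 1.21 and 3.86 in the A2780, PEA and PEO pairs (SE 0.15, limma FDR = 0.000498, 1.1e-06 and 3.86e-13). IFIT3 gave log2FC of -0.76, 0.38 and 3.79 in the A2780, PEA and PEO pairs (SE 0.16, limma FDR = 0.000698, 0.0451 and 8.8e-13). The IFIT3 libraries of PEA1 and PEA2 overlapped. IFIT5, the one IFIT gene whose highest line was A2780 and not PEO4, gave log2FC of -1.15, 0.55 and 1.55 in the A2780, PEA and PEO pairs (SE 0.14, limma FDR = 7.41e-07, 0.00144 and 1.84e-08). The 3 genes IFIT1, IFIT2 and IFIT3 overlap LIPA on the opposite strand in the annotation. The libraries were strand-specific, but the strand setting of the counting is not given in the sources used here.

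OAS1, OAS2 and OAS3 lie side by side on chromosome 12 and make the short adenylate chains that activate RNase L, while OASL is a relative with ubiquitin-like domains. All 4 rose in PEO4. OAS3 (chr12:113375856-113414265, plus strand) stood at 11.2, 3.87 and 7.60 CPM in A2780, 41.9, 43.4 and 38.4 in CP70, 66.8, 67.7 and 70.8 in PEA1, 135, 120.3 and 121 in PEA2, 74.8, 81.9 and 84.3 in PEO1 and 461, 406 and 454 in PEO4. It was present in every library, and in each pair every library of the resistant line lay above every library of the sensitive one. The log2FC was 2.54, 0.87 and 2.45 in the A2780, PEA and PEO pairs (SE 0.22, limma FDR = 9.53e-09, 0.0021 and 3.05e-08). Of its direct neighbours, OAS1 had no read in A2780 or CP70, and OAS2 had none in A2780 and at most 3 per library in CP70. The log2FC of OAS2 in the A2780 pair, 1.68 (limma FDR = 0.00163), thus compares lines that are both at the limit of detection. In the other pairs OAS1 gave a log2FC of 1.53 (PEA, SE 0.37, limma FDR = 0.00135) and 4.16 (PEO, limma FDR = 2.44e-08). OAS2 gave -0.06 (PEA, SE 0.39, limma FDR = 0.901) and 5.41 (PEO, limma FDR = 1.43e-09). OASL had 0 reads in A2780 and 9 in all 3 CP70 libraries. Measured against 3 reads per A2780 library its fold was at least 0.625, a limit too low to tell whether it rose. The log2FC of OASL in that pair, 2.06, was called. Its other values were -0.49 (PEA, SE 0.41, limma FDR = 0.303) and 4.21 (PEO, limma FDR = 7.32e-08).

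RSAD2 and CMPK2 stand head to head on chromosome 2. RSAD2 encodes viperin, which turns a nucleotide into a chain terminator of viral RNA synthesis, and CMPK2 a mitochondrial nucleotide kinase. CMPK2 (chr2:6980701-7006766, minus strand) stood at 0 CPM in all 3 A2780 libraries, 1.97, 1.42 and 1.58 in CP70, 0, 1.43 and 0.575 in PEA1, 5.33, 11.2 and 8.23 in PEA2, 9.14, 10.7 and 13.0 in PEO1 and 56.7, 46.4 and 57.6 in PEO4. It had no read in A2780, few in PEA1, and rose in all 3 resistant lines without overlap. The log2FC was 3.46, 3.30 and 2.28 in the A2780, PEA and PEO pairs (SE 0.45, limma FDR = 2.87e-06, 2.82e-06 and 0.000376). CMPK2 was at least 1.68-fold higher in CP70 and 13.4-fold higher (95% counting interval 4.39 to 66.6) in PEA2, so the size of its change in these pairs rests on the few reads of the sensitive line. RSAD2 had 1 read in all 6 A2780 and CP70 libraries together, a log2FC of 0.92 in the PEA pair (SE 0.58, limma FDR = 0.177) and of 4.23 in the PEO pair (limma FDR = 6.55e-06). The 2 genes overlap on opposite strands.

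MX1 and MX2 are dynamin-like GTPases encoded next to each other on chromosome 21. MX1 acts on many RNA viruses and MX2 on lentiviruses and herpesviruses. MX1 (chr21:42791947-42841998, plus strand) stood at 0.280, 0 and 0 CPM in A2780, 0.491, 0.237 and 1.31 in CP70, 12.3, 24.2 and 16.7 in PEA1, 57.1, 83.5 and 66.3 in PEA2, 7.18, 10.0 and 10.9 in PEO1 and 559, 531 and 519.7 in PEO4. PEO4 was far above every other line, PEA2 was above PEA1, and A2780 and CP70 overlapped near 0. The log2FC was 1.54, 1.97 and 5.84 in the A2780, PEA and PEO pairs (SE 0.43, limma FDR = 0.0075, 0.000572 and 2.02e-09). With 1 read in A2780 against 9 in CP70, MX1 was 6.17-fold higher (95% counting interval 0.855 to 271) in CP70, an interval that includes no change. The CP70 difference also missed the FDR with each pair fitted alone, with 2 reads added, with voom weights, and without A2780 replicate 2 or CP70 replicate 3. TMPRSS2 overlaps MX1 on the opposite strand in the annotation.

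MX2 (chr21:42733926-42781320, plus strand) stood at 0 CPM in all 3 A2780 libraries, 0, 0.237 and 0 in CP70, 0 in all 3 PEA1 libraries, 38.4, 54.7 and 43.9 in PEA2, 1.63, 2.50 and 3.77 in PEO1 and 7.27, 11.7 and 8.52 in PEO4. Its highest line was PEA2, and PEA1 held no read. It was thus at least 22.7-fold higher in PEA2 than in PEA1 when PEA1 is set to 3 reads per library. The log2FC was -0.02, 7.09 and 1.79 in the A2780, PEA and PEO pairs (SE 0.47, limma FDR = 0.977, 1.24e-10 and 0.0046). Both lines of the A2780 pair were at the limit of detection, so the value there is no measured change. The change was larger in the PEA than in the PEO pair (difference 5.30, SE 0.67, limma FDR = 1.36e-06). PTPRC and CDH5, at 0 in PEA1 and present in PEA2, moved with MX2, and their part in this result was not tested.

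DDX60 and its relative DDX60L are helicases of chromosome 4, HELZ2 is a nuclear helicase and coactivator, and SAMD9 and SAMD9L are large cytoplasmic proteins that restrain poxviruses and cell growth. DDX60L (chr4:169277886-169458937, minus strand) stood at 4.20, 4.64 and 6.26 CPM in A2780, 14.9, 12.1 and 17.1 in CP70, 9.44, 13.5 and 16.1 in PEA1, 86.4, 84.9 and 77.7 in PEA2, 19.6, 17.5 and 19.1 in PEO1 and 125, 133 and 137 in PEO4. In every pair each library of the resistant line lay above each library of the sensitive line. The log2FC was 1.52, 2.67 and 2.80 in the A2780, PEA and PEO pairs (SE 0.19, limma FDR = 2.36e-06, 4.52e-10 and 8.6e-10). The study names DDX60L among the genes raised past a log2FC of 2 in all 3 resistant lines, a size not reached here in CP70. PALLD overlaps DDX60L on the opposite strand, and reads from stretches shared with DDX60 could be split between the genes. DDX60 stood at 2.24, 3.35 and 4.92 CPM in A2780, 5.90, 7.58 and 3.94 in CP70, 21.8, 19.2 and 23.0 in PEA1, 53.3, 57.6 and 38.4 in PEA2, 13.7, 16.1 and 15.8 in PEO1 and 148, 152 and 119 in PEO4. The A2780 and CP70 libraries overlapped, and the other pairs did not. The log2FC was 0.71, 1.19 and 3.18 in the A2780, PEA and PEO pairs (SE 0.26, limma FDR = 0.0352, 0.000572 and 8.43e-09). The CP70 difference in DDX60 missed the FDR with each pair fitted alone, under quantile normalization, with voom weights and without A2780 replicate 1 or 2 or CP70 replicate 1 or 2.

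HELZ2 (chr20:62189439-62205592, minus strand) stood at 5.60, 4.90 and 5.81 CPM in A2780, 13.6, 12.6 and 9.73 in CP70, 32.7, 29.2 and 24.2 in PEA1, 105, 177 and 154 in PEA2, 34.6, 35.1 and 49.0 in PEO1 and 128, 128 and 127 in PEO4. It rose in each resistant line without overlap, and PEA2 and PEO4 shared the highest levels. The log2FC was 1.10, 2.30 and 1.71 in the A2780, PEA and PEO pairs (SE 0.19, limma FDR = 9.29e-05, 2.9e-09 and 5.05e-07). SAMD9 and SAMD9L, neighbours on chromosome 7, had no read in any of the 6 A2780 and CP70 libraries. SAMD9 rose in PEA2 (log2FC 0.70, SE 0.26, limma FDR = 0.0254) and in PEO4 (1.93, limma FDR = 5.08e-06). SAMD9L gave -0.13 in the PEA pair (SE 0.33, limma FDR = 0.743) and 2.76 in the PEO pair (limma FDR = 1.34e-06).

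The membrane factors held the widest differences. Tetherin, the product of BST2, holds budding virus at the cell surface, and the IFITM proteins, encoded side by side on chromosome 11, block viral fusion. BST2 (chr19:17513748-17516439, minus strand) stood at 90.9, 76.4 and 119.8 CPM in A2780, 5.24, 2.37 and 5.52 in CP70, 68.3, 62.7 and 56.9 in PEA1, 6.93, 11.8 and 6.86 in PEA2, 0, 0 and 0.452 in PEO1 and 15.9, 14.0 and 24.7 in PEO4. It was high in the sensitive lines A2780 and PEA1 and close to absent in the sensitive line PEO1, with no overlap in any pair. The log2FC was -4.48, -2.89 and 6.17 in the A2780, PEA and PEO pairs (SE 0.40, limma FDR = 1.54e-08, 3.63e-06 and 3.68e-10). It was thus 20.6-fold lower (95% counting interval 15.9 to 27.0) in CP70, 6.79-fold lower (95% counting interval 5.20 to 8.97) in PEA2, and 74.3-fold higher (95% counting interval 24.9 to 364) in PEO4 than in PEO1, where 3 reads were counted in all. BST2 was the one gene of the 37 that fell in 2 resistant lines and rose in the third.

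IFITM1 (chr11:310041-315272, plus strand) stood at 17.3, 21.7 and 10.7 CPM in A2780, 0.164, 0.237 and 0 in CP70, 0, 0 and 1.73 in PEA1, 32.5, 37.1 and 41.6 in PEA2, 0.326, 0 and 0.754 in PEO1 and 48.4, 49.1 and 45.0 in PEO4. A2780, PEA2 and PEO4 expressed it, and CP70 held 2 reads in all, PEA1 3 and PEO1 6, so that the resistant line was the high one in 2 pairs and the low one in the first. The log2FC was -6.16, 5.86 and 6.84 in the A2780, PEA and PEO pairs (SE 0.60, limma FDR = 4.67e-08, 5.44e-08 and 1.92e-08). IFITM1 was 124-fold lower (95% counting interval 33.8 to 1032) in CP70, 56.2-fold higher (95% counting interval 19.0 to 274) in PEA2 and 99.2-fold higher (95% counting interval 45.2 to 272) in PEO4. IFITM2, its neighbour on the same strand, stood at 17.3, 11.9 and 16.5 CPM in A2780, 9.83, 9.72 and 8.15 in CP70, 15.3, 7.12 and 15.5 in PEA1, 2.13, 3.17 and 5.03 in PEA2, 0, 0 and 0.301 in PEO1 and 28.7, 27.0 and 29.2 in PEO4. PEA2 was below PEA1, opposite to IFITM1, and PEO4 was far above PEO1. The log2FC was -0.71, -1.82 and 7.00 in the A2780, PEA and PEO pairs (SE 0.38, limma FDR = 0.146, 0.000304 and 2.21e-11). The 95% interval in the A2780 pair was -1.49 to 0.08, and IFITM2 passed there with each pair fitted alone and with voom weights. IFITM3 gave log2FC of -1.20, 2.52 and 4.13 in the A2780, PEA and PEO pairs (SE 0.18, limma FDR = 1.18e-05, 2.23e-10 and 8.8e-13). Reads shared by the 3 IFITM genes, whose sequences are close, could be split between them.

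PLSCR1 encodes a phospholipid scramblase and LAMP3 a lysosomal membrane protein that also marks mature dendritic cells. PLSCR1 (chr3:146232967-146262643, minus strand) stood at 22.7, 14.2 and 24.6 CPM in A2780, 8.68, 6.87 and 8.15 in CP70, 18.9, 32.1 and 20.1 in PEA1, 127, 95 and 116 in PEA2, 64.0, 74.8 and 75.2 in PEO1 and 143, 121 and 142 in PEO4. It was low in CP70, and PEA2 and PEO4 shared the highest levels. The log2FC was -1.33, 2.26 and 0.92 in the A2780, PEA and PEO pairs (SE 0.20, limma FDR = 2.21e-05, 9.87e-09 and 0.00109). LAMP3 (chr3:182840003-182881627, minus strand) stood at 0, 0.516 and 0 CPM in A2780, 0.655, 1.42 and 1.05 in CP70, 0 in all 3 PEA1 libraries, 104, 55.3 and 89.2 in PEA2, 1.31, 1.79 and 1.21 in PEO1 and 10.0, 7.67 and 5.68 in PEO4. PEA2 stood apart, PEA1 held no read, and in no pair did the lines overlap. The log2FC was 2.02, 7.91 and 2.33 in the A2780, PEA and PEO pairs (SE 0.48, limma FDR = 0.00196, 2.91e-11 and 0.00054). LAMP3 was at least 41.1-fold higher in PEA2 than the 3 reads per library to which PEA1 is limited. From 2 reads in A2780 and 14 in CP70 it was 4.80-fold higher (95% counting interval 1.10 to 43.5) in CP70, and with 2 reads added to each count this difference had an FDR of 0.0513 (limma). The presence of PTPRC and CDH5 in PEA2 moved with LAMP3 as well, and its part was not tested.

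IFI6 and IFI27 are small membrane proteins of 1 family, and IFI44 and IFI44L are cytoplasmic relatives on chromosome 1 whose functions are less well known. IFI6 (chr1:27992575-27998723, minus strand) stood at 1.40, 1.03 and 0.447 CPM in A2780, 4.59, 3.08 and 1.31 in CP70, 1.45, 2.14 and 2.30 in PEA1, 24.5, 15.3 and 26.1 in PEA2, 1.63, 1.79 and 1.51 in PEO1 and 79.6, 75.4 and 79.9 in PEO4. PEO4 and PEA2 were high, and CP70 overlapped A2780 at levels near the limit of detection. The log2FC was 1.39, 3.25 and 5.47 in the A2780, PEA and PEO pairs (SE 0.39, limma FDR = 0.0075, 5.7e-07 and 1.32e-09). The CP70 difference missed the FDR under quantile normalization and without A2780 replicate 3 or CP70 replicate 1. IFI27 (chr14:94571182-94583032, plus strand) stood at 0 CPM in all 3 A2780 libraries, 0, 0.474 and 0.263 in CP70, 0, 0 and 0.575 in PEA1, 50.7, 62.2 and 61.3 in PEA2, 56.2, 43.6 and 82.4 in PEO1 and 417, 376 and 446 in PEO4. It was nearly absent from A2780, CP70 and PEA1 and present in the other lines. The log2FC was 0.75, 6.91 and 2.81 in the A2780, PEA and PEO pairs (SE 0.53, limma FDR = 0.282, 8.83e-10 and 0.000229). The value in the A2780 pair is no measured change, since both lines were at the limit of detection. In PEA2 IFI27 was 267-fold higher (95% counting interval 47.6 to 10563) than in PEA1, where 1 read was counted.

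IFI44L (chr1:79085587-79111830, plus strand) stood at 0 CPM in all 3 A2780 libraries, 3.44, 2.13 and 1.84 in CP70, 27.6, 37 and 25.3 in PEA1, 11.2, 7.20 and 10.1 in PEA2, 0, 0.358 and 0.151 in PEO1 and 37.7, 45.4 and 41.0 in PEO4. It was absent from A2780 and nearly so from PEO1, and it was lower in PEA2 than in PEA1. The log2FC was 3.97, -1.65 and 7.26 in the A2780, PEA and PEO pairs (SE 0.41, limma FDR = 1.1e-07, 0.00164 and 4.22e-11). It was at least 2.51-fold higher in CP70 and 259-fold higher (95% counting interval 71.1 to 2145) in PEO4. IFI44 stood at 0 CPM in all 3 A2780 libraries, 0, 0 and 0.526 in CP70, 19.6, 28.5 and 31.1 in PEA1, 5.87, 12.7 and 9.60 in PEA2, 2.29, 1.79 and 1.21 in PEO1 and 106, 114 and 88.4 in PEO4. It too was lower in PEA2 than in PEA1 and far higher in PEO4 than in PEO1, without overlap. The log2FC was 0.22, -1.52 and 5.81 in the A2780, PEA and PEO pairs (SE 0.55, limma FDR = 0.786, 0.0232 and 6.26e-08). A2780 and CP70 were both at the limit of detection, so the first value is no measured change. The fall of IFI44 in PEA2 missed the FDR without PEA1 replicate 2 or 3 or PEA2 replicate 1. IFI35, a leucine zipper protein that binds NMI, gave log2FC of 0.34, -0.32 and 2.07 in the A2780, PEA and PEO pairs (SE 0.28, limma FDR = 0.356, 0.336 and 5.6e-06).

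SP100 and SP110 belong to the nuclear bodies, XAF1 is a partner of the apoptosis inhibitor XIAP, and LGALS3BP is a secreted glycoprotein that binds galectin-3. SP100 (chr2:231280657-231410321, plus strand) stood at 0 CPM in all 3 A2780 libraries, 9.99, 9.01 and 11.8 in CP70, 47.9, 44.9 and 46.0 in PEA1, 89.1, 86.6 and 73.2 in PEA2, 59.1, 62.2 and 51.2 in PEO1 and 149, 155 and 127 in PEO4. No read was counted in A2780, and the gene rose in all 3 resistant lines without overlap. The log2FC was 6.02, 0.83 and 1.32 in the A2780, PEA and PEO pairs (SE 0.20, limma FDR = 3.45e-15, 0.00137 and 2.31e-05). SP100 was at least 10.4-fold higher in CP70 than 3 reads per A2780 library. LGALS3BP (chr17:76967320-76976029, minus strand) stood at 2.52, 1.29 and 3.13 CPM in A2780, 112, 111 and 107 in CP70, 604, 518 and 509.7 in PEA1, 428, 449 and 473 in PEA2, 442, 448 and 464 in PEO1 and 1585, 1519 and 1822 in PEO4. A2780 was far below every other line, CP70 rose above it, and PEO4 had the highest level. The log2FC was 5.56, -0.27 and 1.86 in the A2780, PEA and PEO pairs (SE 0.19, limma FDR = 4.21e-15, 0.22 and 1.44e-07). In CP70 it was 51.0-fold higher (95% counting interval 33.2 to 82.6) than in A2780. Its 95% interval in the PEA pair was -0.67 to 0.12, and it passed as a fall there with each pair fitted alone, under quantile normalization and with voom weights. SP110 gave log2FC of 0.49, -0.16 and 2.28 in the A2780, PEA and PEO pairs (SE 0.21, limma FDR = 0.0729, 0.518 and 4.82e-08). XAF1 had no read in A2780 and 2 in all of CP70, and gave 0.16 in the PEA pair (SE 0.40, limma FDR = 0.751) and 4.28 in the PEO pair (limma FDR = 4.57e-08).

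**Figure D4:**
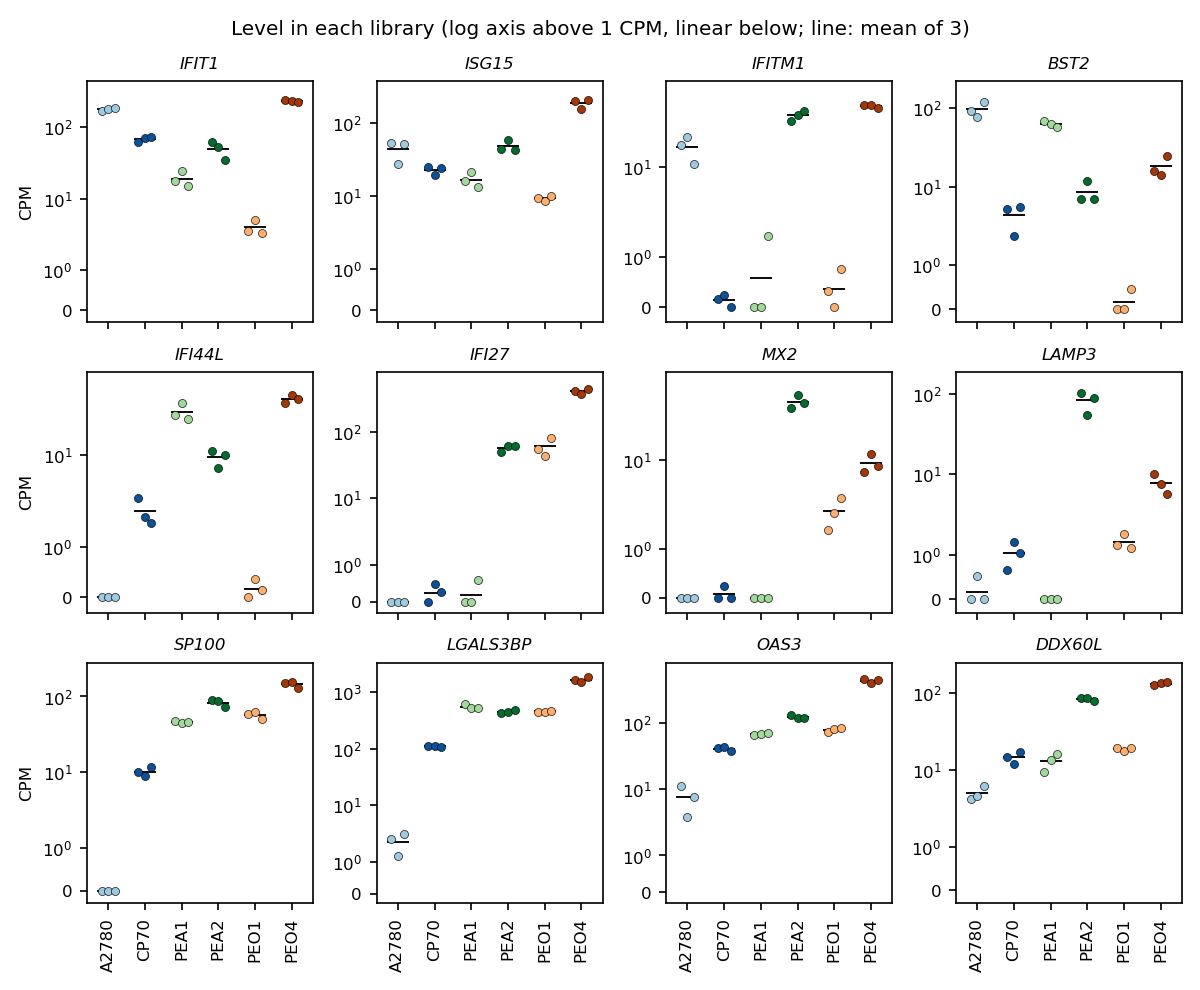
Level in CPM (y axis, logarithmic above 1 and linear below) of 12 members in each of the 6 lines (x axis); points are the 3 libraries and bars their mean. BST2 is high in A2780 and PEA1, IFITM1 in A2780, PEA2 and PEO4, and MX2 and LAMP3 highest in PEA2.

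Across lines, PEO4 had the highest mean level for 30 of the 37 genes, A2780 and PEA2 for 3 each and PEA1 for 1. The 3 genes highest in A2780 were IFIT5, BST2 and IFITM3, although the IFITM3 libraries of A2780 and PEO4 overlapped. The 3 highest in PEA2 were MX2, HELZ2 and LAMP3, of which HELZ2 overlapped PEO4. HERC5 was highest in PEA1, where its libraries overlapped those of PEA2 and PEO4. A2780 was the lowest line for 22 genes, CP70 for 8, PEO1 for 6 and PEA1 for 1. Where a line held few or no reads, its rank depends on the 0.5 reads added and on library depth. OAS1, SAMD9 and SAMD9L had 0 reads in both A2780 and CP70 but are counted for CP70. So are RSAD2 and MX2, with 1 read in CP70 and 0 in A2780. LAMP3 is counted for A2780, with 2 reads, although PEA1 had 0. Members without a single read in 3 libraries numbered 13 in A2780, 3 in CP70, 2 in PEA1 and 0 in PEA2, PEO1 and PEO4. Over all listed genes, 1019 to 1181 had no read in a given A2780 library and 747 to 873 in a CP70 library. The ranges were 649 to 706 in PEA1, 413 to 544 in PEA2, 201 to 342 in PEO1 and 309 to 344 in PEO4. Shares of all genes highest or lowest in each line are not given here.

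The summed level of the 37 genes was lower in the resistant line of the A2780 pair and higher in the resistant line of the others. It was 757 to 855 CPM in A2780 and 560 to 563 in CP70, where 17 of the genes rose, 9 fell and 11 did neither. It was 1324 to 1354 CPM in PEA1 and 2111 to 2241 in PEA2, and 1142 to 1228 in PEO1 and 6242 to 6687 in PEO4. CPM is not divided by gene length, so a sum is weighted towards long and abundant transcripts. Without LGALS3BP the ranges were 756 to 852, 449 to 454, 731 to 836, 1645 to 1792, 700.0 to 763 and 4723 to 5058 CPM in A2780, CP70, PEA1, PEA2, PEO1 and PEO4, and the order within each pair did not change.

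**Figure D5:**
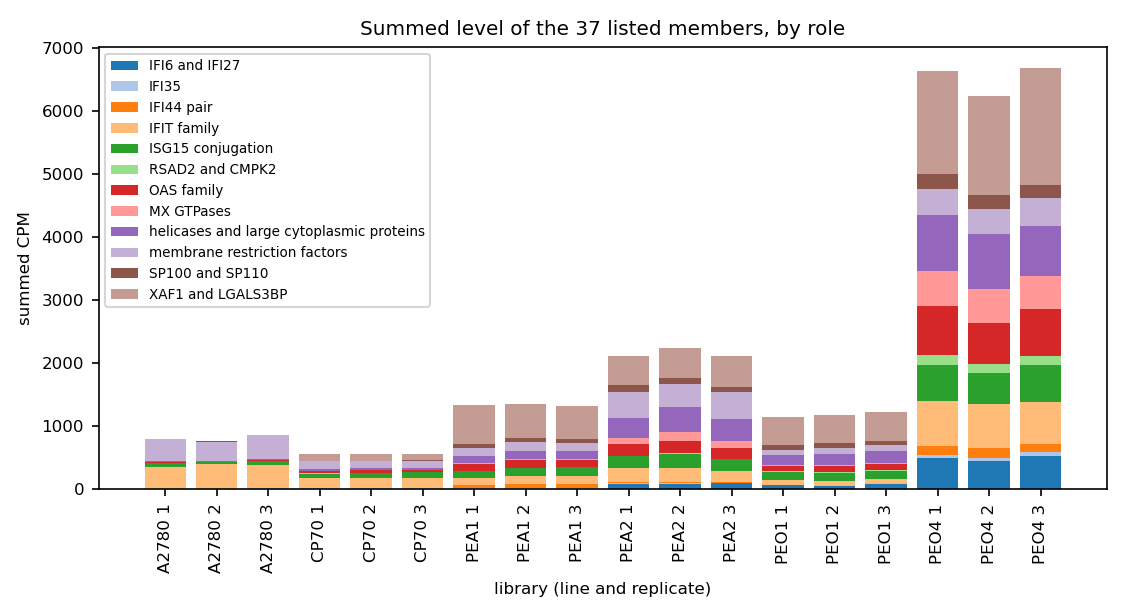
Summed CPM (y axis, from 0) of the 37 members in each library (x axis), stacked by role. The PEO4 bars reach 6242 to 6687 CPM; in A2780 the IFIT genes and the membrane factors make up most of the bar.

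Whether the pairs shared changes was asked directly. Higher in all 3 resistant lines were 11 members, namely IFI6, HERC6, USP18, CMPK2, OAS3, MX1, DDX60, DDX60L, HELZ2, LAMP3 and SP100, where 1.59% of all genes were. Lower in all 3 were 0, at the FDR or at an unadjusted p below 0.05, where 1.21% of all genes were. Since all 37 rose in PEO4, a member could be shared only as a rise. Of the 11, CMPK2, OAS3, DDX60L, HELZ2 and SP100 rose in all 3 pairs under each of the 26 alternative fits, and the other 6 lost at least 1 pair in at least 1 of them. A further 8 fell in CP70 and rose in PEA2 and PEO4: IFIT1, IFIT2, IFIT3, IFIT5, ISG15, IFITM1, IFITM3 and PLSCR1. Of all genes, 17.7% fell in CP70, 32.5% rose in PEA2 and 19.6% rose in PEO4. The share of all genes that did all of these together is not given here. RefSeq promoters were found for 7 of these 8 and all 7 held the motif, as did 5 of the 9 promoters found for the 11 shared genes. It was in 2 of 3 for the members that rose in PEA2 and PEO4 without passing in CP70, in 2 of 3 for those that rose in CP70 and PEO4 without passing in PEA2, in 1 of 1 for each of the 3 remaining combinations with a fall, and in 0 of 5 for the members that passed in PEO4 alone (IFI35, RSAD2, SAMD9L, SP110 and XAF1). RSAD2, SAMD9L and XAF1 had no measurable change in the A2780 pair. These counts describe groups formed from the expression values and were not tested.

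Changes differed between the A2780 and PEA pairs in 27 of the 37 genes (57.5% of all genes), between the A2780 and PEO pairs in 33 (47.5%) and between the PEA and PEO pairs in 30 (58.7%), at an FDR below 0.05 of the difference itself (limma). The 9 members at the limit of detection in both A2780 and CP70 have no measured change in that pair; 5 of them are among the 27 and all 9 among the 33, which leaves 22 and 24 of the other 28. Any pair of these contrasts shares the libraries of 1 line pair. IFITM1 had the widest difference, of -12.99 between its change in the A2780 pair and that in the PEO pair (SE 0.84, limma FDR = 1.53e-10). BST2 followed with -10.65 (SE 0.57, limma FDR = 8.71e-12).

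Interferon pathway genes outside the set had a smaller median log2FC than the members in each pair. Single genes went beyond the range of the members. These were NMI in the A2780 pair (log2FC 7.27) and TLR3 in the PEA pair (-5.15), each with 1 line at the limit of detection. No interferon gene examined (IFNA1, IFNB1, IFNE, IFNG, IFNK, IFNL1, IFNL2 and IFNL3) had a row, nor had IRF9, and they were not analysed here. Of 36 listed genes of sensing, receptors, transcription factors and feedback, 13 rose and 4 fell in CP70, 13 rose and 6 fell in PEA2, and 16 rose and 3 fell in PEO4, with median log2FC of 0.22, 0.18 and 0.58. Over all listed genes 22.2% rose and 17.7% fell in CP70, 32.5% and 29.4% in PEA2, and 19.6% and 21.9% in PEO4. STAT2, a transcription factor downstream of type I and III receptors, stood at 20.1, 16.8 and 21.5 CPM in A2780, 11.1, 7.82 and 9.20 in CP70, 55.2, 64.1 and 63.3 in PEA1, 93.3, 114 and 91.5 in PEA2, 45.1, 44.4 and 43.9 in PEO1 and 111, 148 and 127 in PEO4. It was lower in CP70 than in A2780 and higher in PEA2 and PEO4 than in their partners. Its log2FC was -1.05, 0.70 and 1.52 in the A2780, PEA and PEO pairs (SE 0.15, limma FDR = 7.93e-06, 0.000397 and 8.5e-08).

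IRF1, itself induced by interferons, gave log2FC of 2.01, 0.03 and 0.90 in the A2780, PEA and PEO pairs (SE 0.24, limma FDR = 8.94e-07, 0.925 and 0.00512). IRF7, the factor that amplifies type I interferon transcription, gave log2FC of 0.37, 3.79 and 1.69 in the A2780, PEA and PEO pairs (SE 0.44, limma FDR = 0.53, 3.68e-07 and 0.00435), with 2 reads in all of PEA1. NMI, the partner of IFI35, had no read in A2780 and was at least 25.2-fold higher in CP70 than 3 reads per library. IRF8, a factor of myeloid and lymphoid cells, was at least 11.3-fold higher in PEA2, the line with PTPRC and CDH5, than the limit of PEA1, and that coincidence was not tested. Among the RNA sensors IFIH1 (MDA5) rose in all 3 resistant lines, with log2FC of 2.89, 1.47 and 2.61 in the A2780, PEA and PEO pairs (SE 0.32, limma FDR = 3.15e-07, 0.000509 and 1.57e-06), from 1 read in A2780. DDX58 (RIG-I) was called in PEO4 alone, with log2FC of 0.16, 0.13 and 2.06 in the A2780, PEA and PEO pairs (SE 0.16, limma FDR = 0.458, 0.501 and 2.77e-09). DHX58 (LGP2) gave log2FC of 2.06, 2.77 and 1.63 in the A2780, PEA and PEO pairs (SE 0.57, limma FDR = 0.0063, 0.000298 and 0.026), with 1 read in A2780 and 2 in PEA1. TLR3 gave log2FC of 1.89, -5.15 and 2.62 in the A2780, PEA and PEO pairs (SE 0.38, limma FDR = 0.000476, 6.02e-10 and 1.4e-05), so that it was opposite in PEA2, where 3 reads were left. The receptor chain IFNLR1 gave log2FC of 1.45, 2.61 and -0.20 in the A2780, PEA and PEO pairs (SE 0.36, limma FDR = 0.00268, 2.96e-06 and 0.688), with 6 reads in PEA1. The phosphatase PTPN6 was called in PEA2, with log2FC of 1.20, 2.53 and 0.86 in the A2780, PEA and PEO pairs (SE 0.29, limma FDR = 0.00266, 3.25e-07 and 0.0235).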

How the data were processed

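RNA-seq from 6 ovarian cancer lines, 3 libraries each, with no treatment of the cultures recorded in the labels, was analysed. The other assays of the study were not used here. RNA was depleted of ribosomal RNA and made into strand-specific libraries. Counting on UCSC known genes (hg19) was done by the authors with featureCounts, and limma served for normalization; Bowtie2 is named in the submitters' processing notes, and no filter on genes is given in the sources used here. The deposited values are log2 CPM of 12853 genes, made after 0.5 reads were added per count and libraries were scaled. Whole reads, within 0.01 reads, were recovered from 100% of values and served for CPM, counting intervals (exact, 95%), limits of 3 reads and 2 of the alternatives. Libraries held 1344098 to 7067336 reads, and groups were taken from the sample titles.

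Differences in log2 value between lines were tested in 1 limma fit (version 3.58.1, R 4.3.3) of 18 libraries with a mean per line and a trend of the variance, with Benjamini-Hochberg adjustment over 12853 genes. The thresholds for calls, |log2FC| above 2 and FDR below 0.05, follow the study's methods. Differences between pairs were contrasts of the same fit. No batch is given in the labels, and none entered a fit. The calculations were tested on simulated data. Members, marker lists and pathway lists were chosen with earlier results of these data known, so counts over them are descriptions. Values in every library are given for members that passed with the same sign in all 3 pairs, in each pair the 3 with the highest and the 3 with the lowest log2FC of those that passed, and the 5 widest differences between pairs; the other members are given by log2FC, except ISG15, whose libraries are also given and which was chosen after its values were seen. Of the pathway, STAT2, IRF1, IRF7 and genes past |log2FC| of 2 are named; 1 further pathway gene named by the design is not reported here, though counts over the pathway list include it. Figures were drawn with matplotlib 3.10.9. Alternatives were each pair fitted alone, only the 12498 genes whose mean log2 value exceeded 0, quantile normalization, median-of-ratios scaling, 2 reads added, voom weights, no trend, a replicate block, |log2FC| above 1 or no such threshold, and leaving out each library. Same-numbered libraries of a pair did not deviate together (correlations -0.0555 to 0.0737 over 11721 genes), so the numbers were not taken as pairs.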

Additional observations from a re-analysis of the deposited data

Results flagged for a closer look

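Members whose change had opposite signs in 2 pairs, passed in both, and differed in a test of the difference itself (limma, FDR below 0.05) were singled out. Values below are the log2FC of the first pair minus that of the second.

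Between the A2780 and PEA pairs the IFIT genes, ISG15, IFITM1, IFITM3 and PLSCR1 fell in the first and rose in the second. The difference was -2.75 for IFIT1 (FDR = 6.51e-08), -1.97 for IFIT2 (FDR = 2.29e-07), -1.14 for IFIT3 (FDR = 0.000245) and -1.70 for IFIT5 (FDR = 2.81e-07). It was -2.37 for ISG15 (FDR = 2.61e-06), -12.02 for IFITM1 (FDR = 3.63e-10), -3.72 for IFITM3 (FDR = 1.75e-10) and -3.59 for PLSCR1 (FDR = 2.62e-09). IFI44L was the one gene that went the other way, with a rise in CP70, a fall in PEA2 and a difference of 5.62 (FDR = 8.45e-08).

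Between the A2780 and PEO pairs the same 8 genes, the IFIT genes, ISG15, IFITM1, IFITM3 and PLSCR1, fell in the first and rose in the second, and so did BST2. IFIT1 differed by -7.21 (FDR = 5.62e-14), IFIT2 by -4.62 (FDR = 1.29e-12), IFIT3 by -4.55 (FDR = 3.4e-12) and IFIT5 by -2.70 (FDR = 5.73e-10). ISG15 differed by -5.17 (FDR = 6.35e-11), IFITM1 by -12.99 (FDR = 1.53e-10), IFITM3 by -5.34 (FDR = 1.07e-12), PLSCR1 by -2.25 (FDR = 2.35e-06) and BST2 by -10.65 (FDR = 8.71e-12).

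Between the PEA and PEO pairs, 4 genes fell in PEA2 and rose in PEO4. IFI44 differed by -7.32 (FDR = 1.5e-07), IFI44L by -8.91 (FDR = 1.52e-10), BST2 by -9.05 (FDR = 9.7e-11) and IFITM2 by -8.82 (FDR = 5.08e-11). IFITM1 in CP70 and PEA1, IFI44L in A2780, and IFI44L, IFITM2 and BST2 in PEO1, held at most 3 reads per library, so the size of these differences depends on the 0.5 reads added to each count, while their direction rests on the other line of the pair.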

How the results depend on the processing

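Over the 60 single-gene results, 840 alternative values were computed: 808 kept direction and side of the threshold, 27 kept direction and no longer passed, 5 newly passed and 0 reversed. Members called higher in CP70 numbered 6 with 2 reads added, 16 with |log2FC| above 1 and 17 with no threshold on log2FC, against 10. Those called lower in CP70 numbered 6 and 9 under the last 2 settings, against 2. In PEA2 they gave 17 and 23 called higher, against 10, and 4 and 4 called lower, against 1. Quantile normalization gave 2 lower. With no threshold on log2FC, 22.2% of all genes rose and 17.7% fell in CP70, and 32.5% and 29.4% in PEA2. Shares of all genes under the other settings are not given here. Leaving out 1 library gave 1 to 2 called lower in PEA2, with 2 without PEA1 replicate 2, and 9 to 11 shared rises in place of 11. Quantile normalization also moved the median log2FC of all genes in the PEA pair from 0.01 to -0.10. The cause of these changes was not tested beyond the settings themselves. With a replicate block, 10 members were called higher and 2 lower in the A2780 pair, 10 and 1 in the PEA pair and 27 and 0 in the PEO pair, the same counts as without it. In the A2780 pair 9 members were at most at 3 reads per library in both lines and could not be compared. Each pair holds 1 line per state, so a difference between lines cannot be told apart from platinum resistance.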
